A study of Homo sapiens with 6 samples.

Results

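To learn how long noncoding RNAs that recur in the cancer literature behave when a TEAD4-directed peptide is applied, 10 such genes (MALAT1, NEAT1, TUG1, NORAD, KCNQ1OT1, OIP5-AS1, CYTOR, PVT1, H19 and MIR17HG) were read by symbol from an RNA-sequencing table of 62443 genes. All 10 were found. The cells were HGC-27, an established human gastric cancer line, cultured in serum-containing medium and divided into 3 control libraries (Con), labelled as having no treatment and described in the methods as receiving the storage buffer of the peptide, and 3 libraries from cells given GLUP. GLUP is a cyclic peptide that carries tandem TEAD4-binding elements taken from VGLL4, a co-repressor of the Hippo pathway, and that was made to join TEAD4 molecules. The labels give neither dose nor time. The study's text and its methods give the same dose, but the length of exposure differs between them. The methods speak of biological replicates without tying them to libraries, and the labels do not say that the libraries of a group came from separate cultures, so p-values here measure the spread between these libraries, which may be technical.

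Long noncoding RNAs act as RNA, without being translated. Some, such as MALAT1 and NEAT1, stay in the nucleus at or inside bodies that hold splicing and RNA-binding proteins. Others, such as NORAD, work mainly in the cytoplasm, where they bind proteins through repeated sequence elements, and a further kind, such as MIR17HG and H19, are cut to release microRNAs. KCNQ1OT1 and H19 are imprinted, with 1 parental copy active in normal tissue. Most members have been studied as growth-promoting RNAs in gastric and other cancers.

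The sequences most useful for reading these data are those that define what each RNA carries. MALAT1 does not end in an added poly(A) tail: its mature end lies behind a run of A encoded in the gene, which pairs with U-rich stretches to form a triple helix. Whether the libraries were selected for poly(A) RNA is not given in the sources used here, and its part in the MALAT1 levels was not tested. The stretch below spans positions 8390 to 8479 of transcript ENST00000534336, with a U-rich motif (written with T) and the run of 13 A at positions 8459 to 8471 in capitals, 1963 bases before the annotated end of the transcript.
MALAT1 end: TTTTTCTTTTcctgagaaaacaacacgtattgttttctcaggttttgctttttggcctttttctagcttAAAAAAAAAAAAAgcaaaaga

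NORAD holds many copies of the Pumilio element, the 8 letters TGTANATA to which the Pumilio proteins, repressors of translation, bind. A search of the sense strand of the canonical transcript (5401 bases) found 15 of them, 10 as TGTATATA, 4 as TGTAAATA and 1 as TGTACATA, or 2.78 per kilobase. NEAT1 held 6 and TUG1 held 2, or 0.264 and 0.268 per kilobase, and the canonical transcripts of the other members held 0. Among 4099 canonical transcripts at least as long as that of NORAD, NORAD included, 58.6% held an element. Of these, 5 (0.122%) held 15 or more, NORAD among them, and 2 of the 5 were shorter than 2 times its length. The elements at positions 1198, 1299, 1500, 3030 and 3333 of the transcript are shown with their flanks, with the element in capitals.
NORAD element 2: cactactgTGTATATAgttgacaa
NORAD element 3: tcacatttTGTAAATAcctttttg
NORAD element 4: cttatctgTGTATATAgtgtacat
NORAD element 11: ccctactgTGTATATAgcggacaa
NORAD element 12: ctgtgctgTGTATATAgtgtatat

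MIR17HG is the host of the miR-17-92 cluster, which represses cell-cycle brakes and pro-death genes, and H19 is the host of miR-675. Their mature microRNAs (RefSeq, GRCh38.p14) are shown because the host transcript is the only part of them that this table measures, and capitals mark the seed, bases 2 to 8. miR-17-5p and miR-20a-5p share the seed AAAGUGC, and miR-19a-3p and miR-19b-3p share GUGCAAA. The cluster lies on the plus strand of chromosome 13 between 91350618 and 91351382, and both arms of miR-675 lie on the minus strand of chromosome 11 between 1996768 and 1996822.
hsa-miR-17-5p: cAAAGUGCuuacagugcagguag
hsa-miR-20a-5p: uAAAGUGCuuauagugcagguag
hsa-miR-18a-5p: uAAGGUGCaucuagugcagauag
hsa-miR-19a-3p: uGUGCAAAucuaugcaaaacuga
hsa-miR-19b-3p: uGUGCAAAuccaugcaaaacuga
hsa-miR-92a-3p: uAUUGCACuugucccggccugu
hsa-miR-675-5p: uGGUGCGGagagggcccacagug
hsa-miR-675-3p: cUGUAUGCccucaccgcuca

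Levels are given in FPKM, fragments per kilobase of transcript scaled to the mapped fragments of the library, which allows genes of different length to be set side by side. The 6 libraries summed to 909735 to 965147 FPKM, with 20061 to 21498 genes above 0, and the number of reads behind them is unknown. Differences are GLUP minus Con in log2(FPKM + 1), a scale on which changes at low levels look smaller than they are. They were tested with limma over the 7406 genes whose mean was at least 1 FPKM, and the tested genes had a median difference of -0.23. Libraries of Con stood further apart (median SD of a gene 0.43 on this log2 scale) than those of GLUP (0.20), and with 3 libraries against 3 an exact permutation test cannot go below 0.1. Con replicate 2 stood apart, with Pearson correlations across genes of 0.872 to 0.934 with the other libraries, and Con replicate 3 was closer to the GLUP libraries (0.980 to 0.984) than to Con replicates 1 and 2 (0.973 and 0.905). The line was VIM-high (222 to 387 FPKM), with EPCAM at no more than 0.124 FPKM and CDH1, the epithelial cadherin, at no more than 0.0799 FPKM. KRT8 and KRT18 were between 0.917 and 2.51 FPKM, and KRT19 was between 0.764 and 1.34 FPKM. Of the mesenchymal genes listed besides VIM, CDH2 was at no more than 0.0508 FPKM. FN1 was at 0.644 to 3.25 FPKM and ZEB1 at 2.88 to 19.2 FPKM. Of 14 markers of other cell types, CD3E and CDH5 were listed at 0 in every library and PTPRC was at no more than 0.0394 FPKM, whereas the stromal genes DCN, LUM and ACTA2 were at 16.0 to 141 FPKM. The 14 markers summed to 137 to 201 FPKM in Con and 221 to 246 FPKM in GLUP. Their part in the results below was not tested.

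None of the members passed an adjusted p under 0.05 in limma, as did none of the 7406 genes tested (0%). Of the 10 members, 6 reached the minimum of 1 FPKM and 4 (NORAD, KCNQ1OT1, H19 and MIR17HG) did not, and for these a fit with no minimum supplied the values. At an unadjusted p under 0.05 there were 2 of the 6 members tested, compared with 21.7% of the genes tested. MALAT1 was the higher one (4.46% of the genes tested were higher at this p), and CYTOR was lower (17.2%). In the limma fit with no minimum, which holds all 10 members, the one member under this unadjusted p was NORAD. The libraries of the groups did not overlap for 2 members, CYTOR and NORAD, both lower in GLUP, compared with 30.3% of the genes tested, 22.7% in that direction and 7.55% in the other. Mean FPKM was lower in GLUP for 8 members and higher for 2 (MALAT1 and PVT1), while 65.5% of the genes tested had a lower mean in GLUP on the log2 scale. All 4 members under the minimum had a lower mean in GLUP, as did 61.1% of the genes with a mean of 0.1 to 1 FPKM.

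The order of levels was steep. MALAT1 was the highest long noncoding RNA of the table and ranked 35 among all genes by mean level, and CYTOR ranked 12 among the long noncoding RNAs. PVT1 and OIP5-AS1 followed, then TUG1, NEAT1, NORAD and MIR17HG, with H19 and KCNQ1OT1 last. In Con, PVT1 and OIP5-AS1 overlapped, as did NEAT1, NORAD and MIR17HG, and H19 and KCNQ1OT1. In GLUP, the overlapping neighbours were NORAD, MIR17HG and H19, and H19 and KCNQ1OT1.

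**Figure D1:**
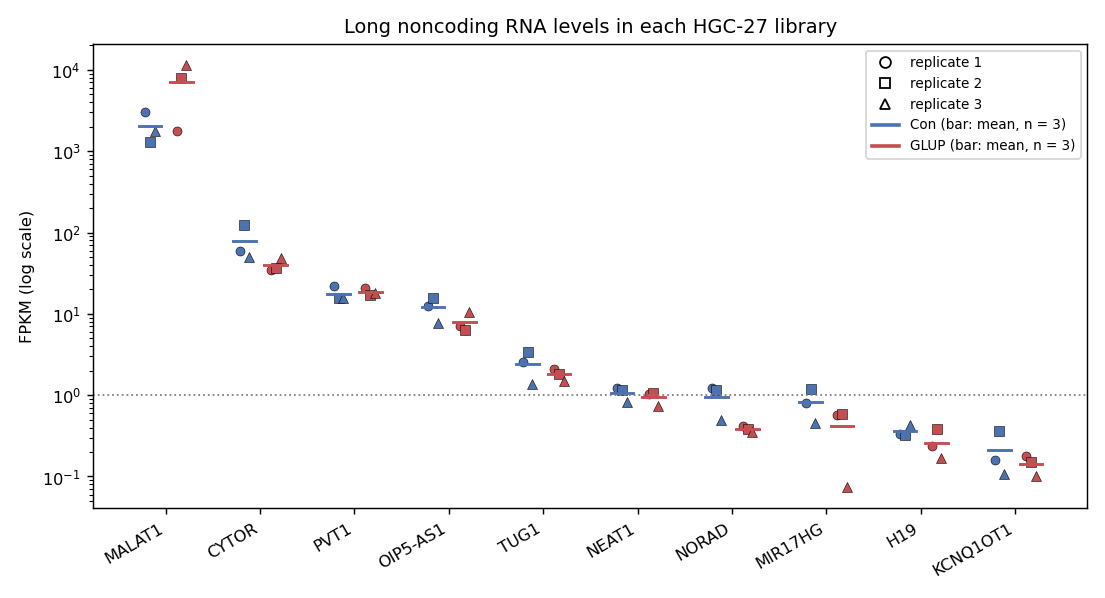
FPKM of the 10 long noncoding RNAs (log axis) in each Con and GLUP library, with the replicate number as the symbol, the group mean as a bar (n = 3) and the minimum of 1 FPKM as a dotted line. MALAT1 spans 1303 to 11459 FPKM with 2 GLUP libraries above all others, and KCNQ1OT1 lies below 0.4 FPKM in every library.

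MALAT1 (ENSG00000251562, chr11:65265111-65275544 on the plus strand, GRCh37) was the member with the largest difference, and this rested on 2 of the 3 GLUP libraries. MALAT1 marks nuclear speckles, bodies rich in splicing factors, and has been linked to metastasis. Its level was 3006, 1303 and 1768 FPKM in the Con libraries and 1755, 7866 and 11459 FPKM in the GLUP libraries. GLUP replicates 2 and 3 were above every Con library, whereas GLUP replicate 1 lay inside the Con range, close to Con replicate 3. The group means were 2026 ± 880 FPKM in Con and 7027 ± 4906 FPKM in GLUP (SD, n = 3), a ratio of 3.47, and the GLUP libraries differed among themselves by 6.53-fold.

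On the log2 scale the difference of MALAT1 was 1.50 with a 95% interval of 0.15 to 2.86, or 1.73 above the median gene, with an adjusted p of 0.204 in limma. The exact permutation test gave a two-sided p of 0.3. Leaving out GLUP replicate 3 lowered the difference to 0.96 and leaving out GLUP replicate 1 raised it to 2.32, with adjusted p-values in limma of 0.421 and 0.342. Leaving out Con replicate 2 gave 1.23. The single gene took up 0.141% to 0.330% of the FPKM total in Con, and 0.188%, 0.828% and 1.19% in the 3 GLUP libraries. Its antisense gene ENSG00000270117, which overlaps it, was listed at 0.

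The GC content of a transcript went with the direction of its difference, with a Spearman rho of 0.56 between the log2 difference and GC content over 7279 genes, which are not independent replicates. MALAT1, with 42.0% GC, ran against this. Among the genes of like GC content (the third of 10 equal bins), the median difference was -0.46 and 86.5% had a lower mean in GLUP. Of the 728 genes of that bin, 0 had a larger difference than MALAT1. With a smooth trend in GC content and length removed from each library, its difference was 1.94 with an adjusted p of 0.229 in limma.

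**Figure D2:**
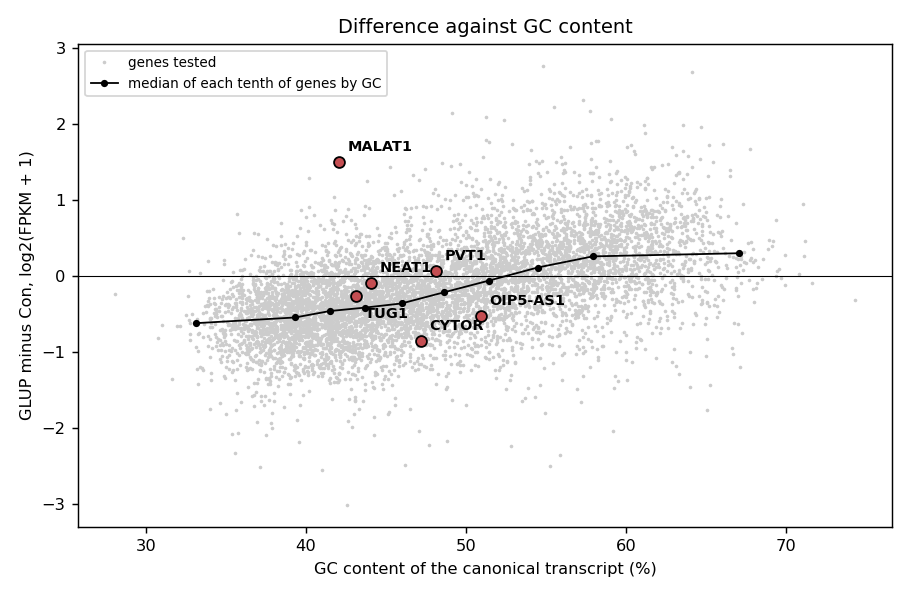
GLUP minus Con in log2(FPKM + 1) against the GC content of the canonical transcript in percent, with the 6 members tested named over all genes tested and a line through the median of each of 10 equal bins of GC content. Differences go from a median of -0.62 in the bin of 10 with the lowest GC content to 0.30 in the highest, and MALAT1 lies at 1.50 above genes of like GC content.

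NEAT1 (ENSG00000245532, chr11:65190245-65213011 on the plus strand), the RNA on which paraspeckles are built, lies upstream of MALAT1 in the same orientation. Its level was 1.24, 1.15 and 0.823 FPKM in Con and 1.04, 1.05 and 0.741 FPKM in GLUP. The groups overlapped, and the replicate 3 library was the lowest in each. The means were 1.07 ± 0.218 and 0.944 ± 0.176 FPKM (SD, n = 3). The log2 difference was -0.09 with a 95% interval of -0.55 to 0.37 (adjusted p = 0.798 in limma), and its sign turned under other scalings. NEAT1 stood just above the minimum, at a mean of 1.01 FPKM, and every MALAT1 value was above 1000 FPKM.

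FRMD8, the nearest protein-coding gene on the NEAT1 side of the pair, was between 0.434 and 0.806 FPKM in all libraries. It did not separate the groups, and its highest value was in Con replicate 2.

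Proteins of the bodies these RNAs occupy were read as lists. Of 16 nuclear speckle proteins, 15 were tested and 0 passed, with 12 means lower and 3 higher in GLUP, a median difference of -0.61 beside -0.23 for all genes, and a median GC content of 40.3%. Among tested genes of like GC content (the second of 10 equal bins), the median difference was -0.54 and 90.5% had a lower mean in GLUP. The splicing factor SRSF11 was at 10.2, 19.7 and 5.09 FPKM in Con and 3.31, 4.17 and 3.27 FPKM in GLUP, a difference of -1.30. The splicing kinase CLK1 was at 6.61, 7.56 and 3.04 FPKM in Con and 1.86, 2.75 and 1.83 FPKM in GLUP, a difference of -1.04. The groups did not overlap for either gene, and both had an adjusted p of 0.194 in limma. On the higher side, RNPS1 and SRSF7 differed by 0.90 and 0.78 (adjusted p = 0.253 and 0.246 in limma), and the groups did not overlap for SRSF7.

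Of 16 paraspeckle proteins, 14 were tested and 0 passed, with 9 means lower and 5 higher and a median difference of -0.26. PSPC1, a core paraspeckle protein, was at 2.66, 3.10 and 1.81 FPKM in Con and 0.886, 1.04 and 0.918 FPKM in GLUP, so the groups did not overlap. Its log2 difference was -0.84 (adjusted p = 0.194 in limma). HNRNPH1 was at 88.9, 431 and 64.9 FPKM in Con and 59.7, 48.2 and 27.0 FPKM in GLUP, with Con replicate 2 far above the rest and a difference of -1.65 (adjusted p = 0.200 in limma). HNRNPK and EWSR1 had higher means in GLUP, by 0.74 and 0.72 (adjusted p = 0.264 and 0.355 in limma). The groups did not overlap for HNRNPH1 and HNRNPK, and overlapped for EWSR1.

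CYTOR (ENSG00000222041, chr2:87754300-87936259 on the plus strand, GRCh37), a cytoplasmic RNA studied in proliferation and invasion, was lower in every GLUP library than in every Con library. Its level was 60.1, 124 and 50.5 FPKM in Con and 34.8, 36.9 and 48.3 FPKM in GLUP. Con replicate 2 was more than double the other Con libraries, and GLUP replicate 3 came close to Con replicate 3. The means were 78.1 ± 39.8 and 40.0 ± 7.29 FPKM (SD, n = 3), or 1.95-fold lower in GLUP. The log2 difference was -0.85 with an SE of 0.38 (adjusted p = 0.229 in limma), -0.62 relative to the median gene. The exact permutation test gave 0.1, the smallest it can give. The difference was -0.47 on leaving out Con replicate 2, and leaving out Con replicate 3 gave -1.10 with an adjusted p of 0.0741 in limma.

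CYTOR has a near copy on the same chromosome, MIR4435-2HG (ENSG00000172965, chr2:111763592-112280953 on the minus strand), so reads of one can be assigned to the other and both levels are uncertain. Of all stretches of 31 bases in the canonical CYTOR transcript, 79.3% also occur in a MIR4435-2HG transcript. Over the 39 annotated CYTOR transcripts this share had a median of 71.7% and ran from 12.8% to 94.2%. The pair of windows below (CYTOR ENST00000646636, positions 109 to 168, and MIR4435-2HG ENST00000419736, positions 136 to 195) was picked to differ at a single base, in capitals.
CYTOR window: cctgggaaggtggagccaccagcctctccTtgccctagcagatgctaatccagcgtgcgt
MIR4435-2HG window: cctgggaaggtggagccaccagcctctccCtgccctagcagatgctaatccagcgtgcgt

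MIR4435-2HG had the same order of libraries as CYTOR within each group. It was at 23.5, 44.5 and 18.8 FPKM in Con and 12.4, 12.7 and 15.3 FPKM in GLUP. The groups did not overlap, and the log2 difference was -0.96 with an SE of 0.36 (adjusted p = 0.198 in limma). The level of CYTOR was 2.56 to 2.78 times that of MIR4435-2HG in Con and 2.81 to 3.16 times in GLUP, and whether the authors' counting split reads between them was not tested.

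NORAD (ENSG00000260032, chr20:34633540-34638940 on the minus strand, GRCh37), which binds Pumilio proteins and guards chromosome stability, was the other member without overlap between groups. Its level was 1.22, 1.16 and 0.497 FPKM in Con and 0.418, 0.383 and 0.348 FPKM in GLUP. Con replicates 1 and 2 were well above the rest, while Con replicate 3 was closer to the GLUP libraries than to its own group. The means were 0.957 ± 0.400 and 0.383 ± 0.0352 FPKM (SD, n = 3), or 2.50-fold lower in GLUP. The log2(FPKM + 1) difference was -0.48 (95% interval -0.92 to -0.04), and -1.05 with 0.1 in place of 1 as the added value. Where all genes of at least 0.1 FPKM were tested, its adjusted p in limma was 0.298. NORAD has 41.8% GC, and the tested genes of like GC content had a median difference of -0.46. Of the 728 genes of that bin, 388 had a higher difference than NORAD and 340 a lower one. Among genes with a mean of 0.1 to 1 FPKM, 12.7% had GLUP values all below the Con values. The exact permutation p was 0.1.

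The start of NORAD is shown because it carries the core of the M-CAT element, the letters CATTCC to which TEAD factors bind. In the RefSeq window from 250 bases before to 50 bases after the annotated start (GRCh38.p14, chr20:36050911-36051210, minus strand), the letters occur 2 times, 123 and 116 bases before the start, in capitals. Searched on both strands, they occur in 14.0% of 35116 such windows, and 2 or more times in 1.37%. OIP5-AS1 has 1 match, 107 bases before its start, and the windows of CYTOR, H19, MALAT1, MIR17HG and TUG1 have 0. A match describes letters in this window and was not tested for binding.
NORAD start: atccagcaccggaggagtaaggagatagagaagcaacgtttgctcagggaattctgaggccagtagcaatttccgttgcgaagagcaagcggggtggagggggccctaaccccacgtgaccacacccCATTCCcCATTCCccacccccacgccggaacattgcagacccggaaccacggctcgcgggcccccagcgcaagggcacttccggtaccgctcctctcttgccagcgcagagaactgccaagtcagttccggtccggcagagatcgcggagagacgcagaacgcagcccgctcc

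Of 8 proteins that NORAD binds, 6 were tested and 0 passed, with 3 means higher and 3 lower and a median difference of -0.03. The partners with the smallest p in either direction were KHDRBS1 and CDC5L, at -0.48 and -0.34, and TOP1, a DNA topoisomerase, and RBMX, at 0.08 and 0.07.

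**Figure D3:**
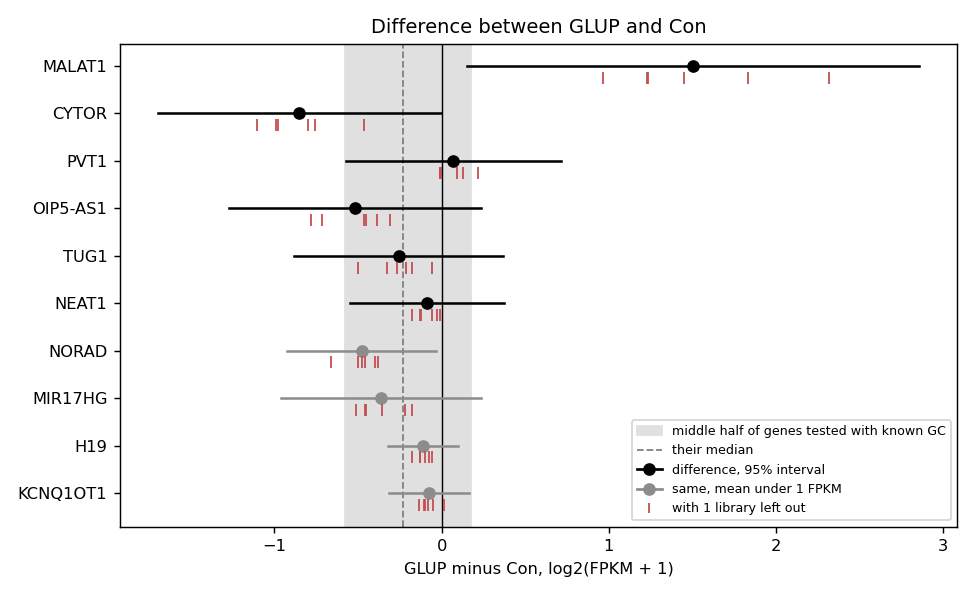
GLUP minus Con in log2(FPKM + 1) for each long noncoding RNA, with 95% intervals from limma (n = 3 a group), grey for members under 1 FPKM, and red ticks for the fits that each left out 1 library. The band holds the middle 50% of the genes tested with a known GC content, and the dashed line is their median. The intervals of MALAT1, CYTOR and NORAD leave out 0, and none of the adjusted p-values is under 0.05. The grey intervals come from the limma fit with no minimum. In that fit the unadjusted p was 0.039 for NORAD, 0.124 for MALAT1 and 0.080 for CYTOR.

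OIP5-AS1 (ENSG00000247556, chr15:41576156-41614590 on the plus strand, GRCh37), a cytoplasmic RNA known for binding microRNAs and the RNA-binding protein HuR, was lower on average in GLUP with overlapping groups. Its level was 12.7, 15.8 and 7.78 FPKM in Con and 7.06, 6.37 and 10.6 FPKM in GLUP. GLUP replicate 3 exceeded Con replicate 3, and the other libraries separated. The log2 difference was -0.52 with a 95% interval of -1.27 to 0.24 (adjusted p = 0.347 in limma), and ran from -0.78 without Con replicate 3 (adjusted p = 0.0951 in limma) to -0.31 without Con replicate 2. Scaling by quantiles, by the upper quartile or by the trimmed mean of log ratios gave -0.25 to -0.26.

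OIP5-AS1 overlaps OIP5 on the opposite strand and NUSAP1 on its own strand, and strand-specific counting is not given in the sources used here, so the levels of these genes are uncertain. OIP5, a centromere protein, was at 8.65, 5.13 and 5.71 FPKM in Con and 7.78, 9.84 and 7.67 FPKM in GLUP, a difference of 0.35 (adjusted p = 0.448 in limma). NUSAP1, a spindle protein, was at 73.4, 130 and 50.4 FPKM in Con and 36.3, 36.2 and 41.2 FPKM in GLUP, with no overlap and a difference of -1.03 (adjusted p = 0.198 in limma). The flanking genes CHP1 and NDUFAF1 differed by -0.90 and -1.14 (adjusted p = 0.251 and 0.194 in limma). A further protein-coding gene on the same strand, ENSG00000285920, overlaps OIP5-AS1 and was at 0.446 FPKM in Con replicate 1 and 0.823 FPKM in GLUP replicate 1 and listed at 0 in the other 4 libraries.

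PVT1 (ENSG00000249859), a neighbour of MYC that is often amplified with it, had the narrowest range over the 6 libraries of the members, 1.39-fold. It was at 21.8, 15.7 and 15.8 FPKM in Con and 20.7, 17.0 and 17.9 FPKM in GLUP. The groups overlapped, and the GLUP values lay within the Con range. The log2 difference was 0.07 with a 95% interval of -0.57 to 0.71 (adjusted p = 0.893 in limma), and its sign turned on leaving out Con replicate 2, Con replicate 3 or GLUP replicate 1. Scaling by quantiles, by the trimmed mean of log ratios or by the upper quartile gave 0.33, 0.34 and 0.35, and taking out the trend in GC content and length gave 0.30. MYC, the growth-driving transcription factor, was at 8.88, 7.15 and 5.85 FPKM in Con and 8.63, 6.39 and 3.85 FPKM in GLUP, a difference of -0.23 (adjusted p = 0.668 in limma). For both genes replicate 1 was the highest library of its group.

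**Figure D4:**
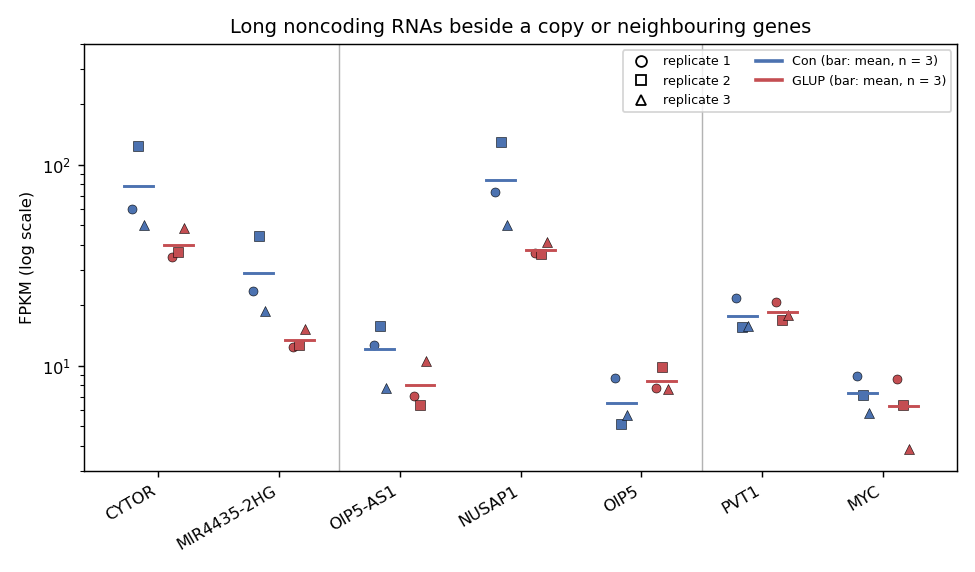
FPKM (log axis) of CYTOR beside its copy MIR4435-2HG, OIP5-AS1 beside the genes that overlap it, and PVT1 beside MYC, by library, with the replicate number as the symbol and bars for group means (n = 3). CYTOR, MIR4435-2HG and NUSAP1 have every GLUP library below every Con library.

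TUG1 (ENSG00000253352, chr22:31365231-31375381 on the plus strand, GRCh37), which has been tied to polycomb repression and is annotated as protein-coding in the release used here, overlapped between groups. It was at 2.53, 3.41 and 1.38 FPKM in Con and 2.08, 1.83 and 1.49 FPKM in GLUP. Con replicate 3 was the lowest of the 6 libraries and Con replicate 2 the highest. The log2 difference was -0.26 with a 95% interval of -0.88 to 0.37 (adjusted p = 0.567 in limma), and 0.15 with the trend in GC content and length removed. Leaving out each library moved it between -0.50 (Con replicate 3 left out) and -0.06 (Con replicate 2 left out), and the same 3 scalings gave -0.04 to -0.06. MORC2, a chromatin protein that starts nearby on the opposite strand, was at 1.50, 0.359 and 1.46 FPKM in Con and 0.701, 1.30 and 0.606 FPKM in GLUP, with no shared order of libraries.

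Polycomb repressive complex 2, which places a repressive histone mark and which TUG1 and KCNQ1OT1 are known to recruit or bind, had 6 of its 10 listed genes tested and 0 passed. All 6 means were lower in GLUP, with a median of -0.25. Of all genes tested, 65.5% were lower, with a median of -0.23. EZH2, the methyltransferase, was at 5.997, 11.3 and 3.88 FPKM in Con and 2.29, 1.96 and 1.83 FPKM in GLUP, with no overlap and a difference of -1.31 (adjusted p = 0.194 in limma). EED, its partner subunit, differed by -0.92 (adjusted p = 0.220 in limma).

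The imprinted members were low. H19 (ENSG00000130600, chr11:2016396-2025782 on the minus strand) was at 0.332, 0.326 and 0.425 FPKM in Con and 0.237, 0.379 and 0.170 FPKM in GLUP. KCNQ1OT1 (ENSG00000269821, chr11:2618538-2721233 on the minus strand), which silences the genes around it in cis, was at 0.158, 0.363 and 0.108 FPKM in Con and 0.176, 0.152 and 0.102 FPKM in GLUP. Both overlapped between groups, and the log2 differences were -0.11 (95% interval -0.32 to 0.10) and -0.08 (95% interval -0.32 to 0.17). The single canonical transcript of KCNQ1OT1 in the annotation has 679 bases against a span of 102696 bases, so its FPKM depends on which transcripts were counted. IGF2, the growth factor imprinted with H19, was between 0.0473 and 0.300 FPKM, CDKN1C, the cell-cycle inhibitor near KCNQ1OT1, was between 0 and 0.256 FPKM, and KCNQ1, which KCNQ1OT1 overlaps on the opposite strand, was at no more than 0.0495 FPKM.

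MIR17HG (ENSG00000215417, chr13:91999940-92049846 on the plus strand) had the widest range over the 6 libraries of the members, 16.0-fold. It was at 0.805, 1.18 and 0.451 FPKM in Con and 0.576, 0.587 and 0.0739 FPKM in GLUP. GLUP replicate 3 lay far below the rest, and the other GLUP libraries lay inside the Con range. The log2 difference was -0.36 with a 95% interval of -0.96 to 0.24, and the exact permutation p was 0.3. Leaving out GLUP replicate 3 gave -0.18, leaving out Con replicate 2 gave -0.22, and leaving out Con replicate 3 gave -0.51. The mature microRNAs printed above are not analysed here.

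Genes that mature microRNAs or that the miR-17-92 cluster is known to repress were listed beside it. Of 13 maturation genes, 6 were tested and 0 passed, with 5 means lower and 1 higher and a median of -0.40. TARBP2, a partner of Dicer, was at 2.95, 1.16 and 4.28 FPKM in Con and 6.21, 5.85 and 5.35 FPKM in GLUP, with no overlap and a difference of 0.93 (adjusted p = 0.198 in limma). PRKRA, another partner of Dicer, was at 27.8, 27.4 and 18.6 FPKM in Con and 16.1, 12.4 and 13.2 FPKM in GLUP, with no overlap and a difference of -0.77 (adjusted p = 0.202 in limma). DROSHA, the nuclear nuclease, differed by -0.60 (adjusted p = 0.258 in limma).

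Of 12 targets of the cluster, 3 were tested and 0 passed. THBS1, an inhibitor of angiogenesis, differed by -0.37 without overlap between groups, E2F1 by 0.32 and CDKN1A by 0.06 (adjusted p = 0.295, 0.403 and 0.882 in limma).

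The members were next set beside the rest of the long noncoding RNAs. Of 512 other long noncoding RNA genes tested, 381 had a lower mean in GLUP, with a median difference of -0.29, and the 6 members tested had a median of -0.17. Among 42 other noncoding RNAs studied in cancer, 39 were found, 22 were tested and 0 passed, with 16 means lower and 6 higher and a median of -0.17. BCYRN1 and RN7SK, both tested and among the higher ones, are annotated as other classes of RNA than long noncoding. MIR100HG was at 2.31, 4.91 and 0.950 FPKM in Con and 0.853, 0.405 and 0.336 FPKM in GLUP, a difference of -1.15 without overlap (adjusted p = 0.194 in limma). CRNDE differed by -1.20 (adjusted p = 0.195 in limma), and HULC by 0.41 (adjusted p = 0.361 in limma).

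**Figure D5:**
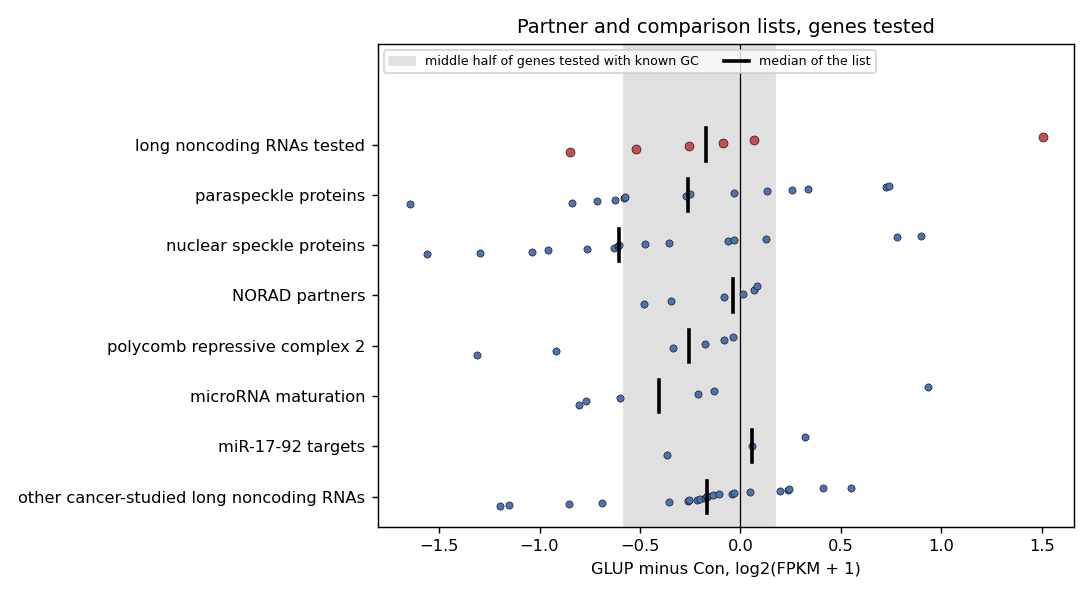
GLUP minus Con in log2(FPKM + 1) for the tested genes of each list, 1 point a gene, with the median of the list as a bar and the middle 50% of the genes tested with a known GC content as a band. MALAT1, at 1.50, has the largest difference among the members tested. The nuclear speckle list has a median of -0.61, beside -0.54 for tested genes of like GC content.

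The members' extremes fell in few libraries. Of the 10 members, 9 had their highest value in a Con library, 5 of them in Con replicate 2, and 7 had their lowest in a GLUP library, 5 of them in GLUP replicate 3. For the members tested, with MALAT1 left out, the median deviation from the gene mean on the log2 scale was 0.21, 0.53 and -0.18 in the Con libraries. It was -0.14 to 0.02 in the GLUP libraries. Over all genes tested the same medians were 0.23, 0.18 and -0.05 in Con and -0.13 to -0.10 in GLUP. The rank correlation of each library's deviations with GC content was negative in Con replicates 1 and 2 (-0.34 and -0.60) and positive, from 0.34 to 0.54, in the other 4 libraries. Without Con replicate 3, 1367 of the genes tested (18.5%) passed an adjusted p under 0.05 in limma, and 0 of the 6 members tested did. The part of GC content in the members' differences was not tested beyond the values given with its trend removed.

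The profiles over the 6 libraries were also set side by side, as descriptions over libraries of unknown depth whose trends with GC content differ. Of 45 pairs of members, the highest Pearson r was 0.91, for TUG1 and KCNQ1OT1, followed by 0.90 for OIP5-AS1 and CYTOR, and the lowest was -0.70, for MALAT1 and MIR17HG. The tested genes most like MALAT1 were SLC2A11, FKBP2 and FABP5P7 (r = 0.96, 0.95 and 0.94). EIF2AK2 and RNF146 were among those most like NEAT1 (r = 0.98 each). Those most like the mean profile of the members tested were NSUN3, IFNAR1 and HUS1 (r = 0.99, 0.99 and 0.98), with 38 genes above an r of 0.95.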

How the data were processed

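The 6 HGC-27 libraries were grouped by their titles into 3 Con and 3 GLUP. The authors deposited 1 table, of FPKM, with 62492 rows, made on an online platform. The submitters' processing notes name HISAT2, Cufflinks and RSEM with no version or role and the build GRCh38.p10, whereas the gene identifiers carry the suffix of a GENCODE annotation lifted to GRCh37. Pseudoautosomal copies (49 rows) were summed with their counterparts. Coordinates, transcripts and GC content were taken from GENCODE release 44 (GRCh37), and microRNAs and start windows from RefSeq.

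Values were transformed to log2(FPKM + 1) and fitted with limma 3.58.1 (lmFit, eBayes with trend, two-sided, no covariate) in R 4.3.3 with Benjamini-Hochberg adjustment. The fit was tested on simulated data. Exact permutation tests used scipy 1.17.1. The members and lists were chosen with earlier results of these data known. Besides the members, named genes were the 2 tested genes of each list with the smallest p in each direction, those next to or overlapping a member, and those with the most similar profile, of which some are not reported here. FPKM carries no read numbers, so depth is unknown and no counting interval is given. The other settings were other added values, minimums, scalings and variance models, correction of each library for GC content and length by loess, a replicate block, and leaving out each library.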

Additional observations from a re-analysis of the deposited data

How the results depend on the processing

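Over 202 member results under other settings, 191 kept their direction and 11 reversed. An adjusted p was available for 132 of them, and none of these was under 0.05, the lowest being 0.0741 for CYTOR without Con replicate 3. The 4 members under 1 FPKM had one only where the minimum was 0.1 FPKM or absent. Without Con replicate 3, the unadjusted limma p of NORAD and MIR17HG was 1.69e-05 and 0.00057. These 2 values come from a fit with no minimum, which holds 30999 genes listed at 0 in every library. Without that library, 2986 of the 7406 genes tested also had an unadjusted p under 0.05 in limma. NEAT1 turned to 0.052 under quantile scaling, 0.058 under the trimmed mean of log ratios, 0.063 under the upper quartile, and 0.29 once the loess trend in GC and length was taken out, with or without the replicate block. TUG1 turned to 0.15 with that trend taken out, with or without the block. KCNQ1OT1 turned to 0.013 without Con replicate 2. Leaving out each library gave PVT1 values from -0.0097 to 0.22 and KCNQ1OT1 values from -0.14 to 0.013. MALAT1 ran from 0.96 to 2.32, CYTOR from -1.10 to -0.47 and NORAD from -0.66 to -0.38 in the same fits.

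The number of genes past the threshold was 0 of 7406 and became 2 once that trend was taken out, 1 once it was taken out with a replicate block, 1 with a minimum of 5 FPKM, 1 without the variance trend and 1 with the replicate block alone. Leaving out each library gave 0 to 1367 genes, the highest without Con replicate 3, and 0 to 0 of the 6 members tested. The cause was not tested. Across genes, the Con and GLUP libraries of replicates 1, 2 and 3 correlated at 0.13, -0.01 and -0.17 in how far they stood from their own group. With only 3 libraries a group, these values cannot show whether libraries with the same number were handled together, which was not tested. The trend removal gave no value for the 4 members under 1 FPKM, and a minimum of 5 FPKM left out NEAT1 and TUG1. Depth is unknown, so how far it limits the low members cannot be stated.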

Other observations

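GAS5, the host of small nucleolar RNAs, was chosen after its values were seen, as the long noncoding RNA next below MALAT1 in level. It was at 2261, 2731 and 1764 FPKM in Con and 1254, 1358 and 1523 FPKM in GLUP. The groups did not overlap, and the log2 difference was -0.69 (adjusted p = 0.198 in limma), opposite in sign to that of MALAT1.

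CYLD, a deubiquitinase repressed by miR-19, was also chosen after its values were seen. It was at 2.10, 1.06 and 1.29 FPKM in Con and 0.411, 0.485 and 0.335 FPKM in GLUP, without overlap, and lay below the minimum for testing.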
